A study of Mus musculus with 16 samples.

Results

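The comparison described here sets mouse embryonic stem (ES) cells that received doxycycline (Dox) to induce an artificial transcriptional activator against ES cells that expressed the transcription factor A-MYB. Each side has 2 RNA-seq libraries, so it rests on 4 of the 8 ES cell libraries, chosen by their labels, and is given across all 23420 genes of the count tables. All the cells were J1 ES cells of the 129S4/SvJae background at passage 36, sampled on day 3, in medium with serum, LIF and the inhibitors PD0325901 and CHIR99021, on gelatin without feeder cells. All of them, the controls included, carried the transgene Tn(dCas9-VPR/RLTR10B2-gRNA-DsRed). The Dox cells received 1 µg/ml Dox and no A-MYB. The A-MYB cells expressed A-MYB and received no Dox. The control cells received neither treatment, and their levels are given beside both for many, but not all, of the genes named. The remaining 2 libraries received both treatments. They enter the filter on low counts, the estimate of the spread and the mean level over the 8 libraries. Induction was on day 1 and day 2 per the labels.

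dCas9-VPR is a Cas9 protein without cutting activity that is fused to activation domains, and its guide RNA directs it to chosen DNA. RLTR10B2 is a family of long terminal repeats left by endogenous retroviruses, and such repeats can act as promoters or enhancers in germ cells. A-MYB, encoded by Mybl1, is the DNA-binding regulator that switches on meiotic and piRNA genes in male germ cells at the pachytene stage. The comparison asks how the transcriptome of cells given the one treatment differed from that of cells given the other. A group given Dox but lacking the activator was not analysed here, so the drug is part of the Dox side. RNA came from wells of a 24-well plate, and nothing says that replicates were separate cultures. The p-values therefore measure the spread between these samples, which may be technical.

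Gene counts per library were 33771487 and 29735161 in Dox cells and 28254102 and 31168253 in A-MYB cells. Reads outside any annotated gene were 7.45% and 7.83% in Dox cells and 8.34% and 7.54% in A-MYB cells. The ES cell markers Pou5f1, Nanog, Sox2, Zfp42, Esrrb, Klf4, Tfcp2l1 and Dppa5a summed to 7127 and 7165 CPM (a gene's counts scaled to a fixed library size) in Dox cells and 6603 and 6848 CPM in A-MYB cells. Summed markers were 3.94 and 3.37 against 3.00 and 4.21 CPM for fibroblasts, 8.63 and 9.31 against 8.15 and 7.71 for endoderm, and 27.6 and 28.1 against 24.4 and 23.3 for mesoderm. They were 143 and 147 against 138 and 134 CPM for neuroectoderm, 101 and 98.9 against 88.5 and 88.8 for trophoblast, and 11.5 and 8.32 against 11.3 and 8.92 for spermatocytes. Of the 7 fibroblast and of the 5 spermatocyte markers, 1 each was at 0 in all 4 libraries, Dcn and Spo11. In bulk samples, fewer cells of a type and less RNA per cell cannot be told apart. Mybl1 itself stood at 11.0 and 10.2 CPM in Dox cells, 22.025 and 17.8 in A-MYB cells and 8.38 and 6.92 in control cells. Both A-MYB libraries lay above all others of these groups, and the log2 fold change, Dox minus A-MYB throughout, was -0.91 (SE 0.14, adjusted p = 5.32e-05) by edgeR's quasi-likelihood test with Benjamini-Hochberg adjustment over all genes tested. The counts do not separate an introduced Mybl1 copy from the cells' own.

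Of 14664 genes tested, 741 were higher in Dox cells (5.05%) and 1018 were higher in A-MYB cells (6.94%), 12.0% together, at an adjusted p under 0.05. Most differences were small, and the large ones lay mainly on the Dox side. At least 2-fold differences were called for 118 genes higher in Dox cells (0.805%) and 91 higher in A-MYB cells (0.621%). At least 8-fold differences numbered 32 and 5. At least 1.25-fold differences numbered 436 and 685, so the A-MYB side held more of the modest ones. Scaling by total counts turned the split to 872 higher in Dox cells and 853 higher in A-MYB cells, with a shift of 0.02 in the median log2 fold change. At an unadjusted p under 0.05, 3883 genes passed. The counts rested heavily on single libraries: 561 genes passed without Dox replicate 2, 759 without A-MYB replicate 1, and 1006 without Dox replicate 1. At least 2-fold differences went from 209 to 139 without Dox replicate 2, where 57 of them were higher in A-MYB cells. Every gene called in common with the full set kept its direction in each of those 3 fits.

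**Figure D1:**
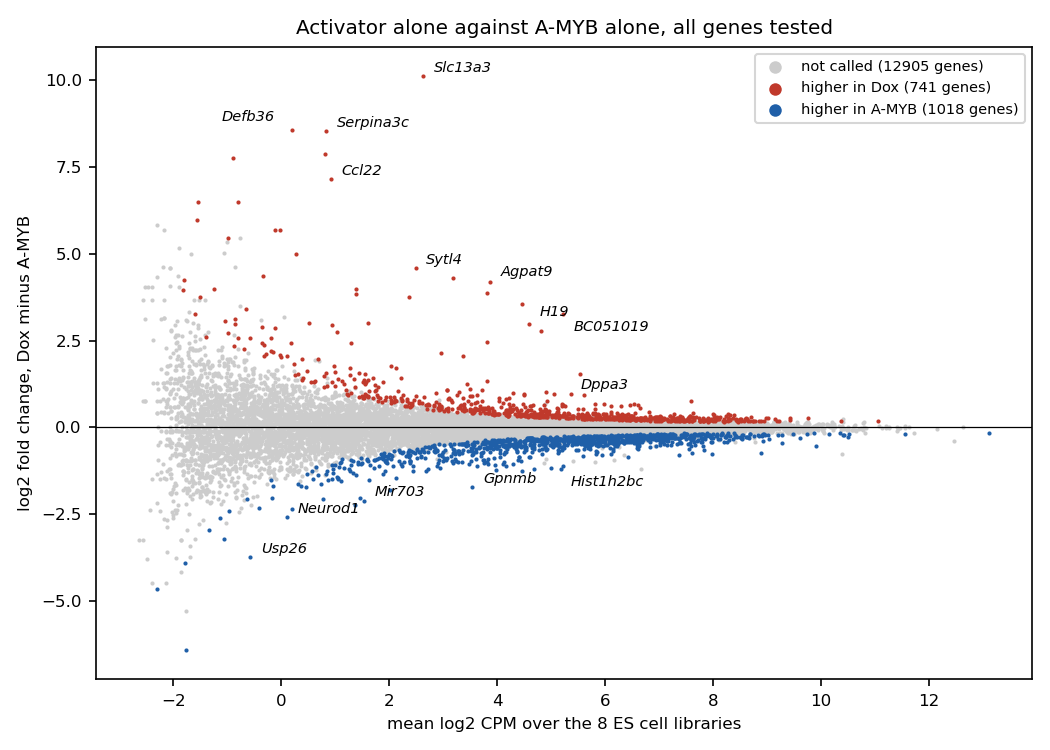
Each point is a gene tested, with its mean log2 CPM over the 8 ES cell libraries on the horizontal axis and its fitted log2 fold change, Dox minus A-MYB, on the vertical axis. Red points are the 741 genes called higher in Dox cells and blue points the 1018 called higher in A-MYB cells; the largest fitted values belong to genes with no count in A-MYB cells and depend on edgeR's prior count.

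The control libraries, which are not part of the contrast, place each difference relative to untreated cells. Of the 118 genes at least 2-fold higher in Dox cells, the control range overlapped the A-MYB libraries alone in 60, lay between the groups in 38, overlapped the Dox libraries alone in 11 and lay below both groups in 9. The genes at least 2-fold higher in A-MYB cells were more mixed. Among those 91, the control range lay between the groups in 25, overlapped the Dox libraries alone in 20 and the A-MYB libraries alone in 20, lay above both groups in 13 and below both in 12, and overlapped both in 1. Among all 1018 genes called higher in A-MYB cells, 325 had both control libraries below all 4 treated ones, and 200 had both above.

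The genes that separated the Dox cells most had unlike functions, and most were near silent in control cells. Slc13a3, which encodes a sodium-coupled dicarboxylate transporter (chr2:165405295-165473197, GRCm38.p6, as for all positions here), had 4.82 and 4.36 CPM in the Dox libraries and 0 counts in both A-MYB and both control libraries. With a floor of 3 counts over the A-MYB group, it was at least 88.0-fold higher in Dox cells (adjusted p = 5.17e-11). Defb36, a beta-defensin gene, with 1.24 and 1.89 CPM, and Serpina3c, a serine protease inhibitor gene, with 1.94 and 1.07 CPM, were likewise without a count in the A-MYB and control libraries. They were at least 29.5-fold and 29.2-fold higher in Dox cells (adjusted p = 8.78e-06 and 4.38e-06). Kcnt1, a sodium-activated potassium channel gene, was at 0.878 and 1.03 CPM in Dox cells, 0 in A-MYB cells and 0.173 and 0.272 in control cells, at least 18.1-fold apart between the treatments (adjusted p = 1.37e-05). The chemokine gene Ccl22 was at 0.606 and 0.550 CPM in Dox cells and 0 in A-MYB cells, at least 11.1-fold apart (adjusted p = 0.000184). Its mean level over the 8 libraries, on which the choice of named genes rests, was set mainly by the libraries that received both treatments, at 5.72 and 6.44 CPM. The same held for Kcnt1, at 5.43 and 4.75 CPM in those libraries, and for Klrb1a, named below, at 8.50 and 7.45. Those libraries also raised the mean level of other named genes in both directions, such as Rcsd1 at 3.48 and 4.45 CPM. Svs4, which encodes a seminal vesicle protein, held 77 counts over both Dox libraries and 2 over both A-MYB ones, a ratio of 35.5 (95% counting interval 9.51 to 299; adjusted p = 6.57e-05).

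Other genes of this kind also had counts in A-MYB cells. Megf6, which encodes a protein with many EGF-like domains (chr4:154170704-154275721), stood at 27.3 and 25.7 CPM in Dox cells, 2.12 and 2.40 in A-MYB cells and 2.22 and 1.79 in control cells, a log2 fold change of 3.54 (SE 0.13, adjusted p = 4.39e-16). Nmnat3, which makes NAD in mitochondria, was at 17.4 and 16.6 CPM in Dox cells and 1.02 and 1.30 in A-MYB cells, a log2 fold change of 3.86 (SE 0.17, adjusted p = 8.99e-15). Both A-MYB libraries also lay above the control libraries, at 0.485 and 0.311 CPM. Agpat9, an acyltransferase of triglyceride synthesis, was at 16.5 and 18.5 CPM against 0.804 and 1.10, with a log2 fold change of 4.18 (SE 0.18, adjusted p = 7.18e-15); its control libraries, at 0.693 and 0.932 CPM, overlapped the A-MYB ones. Stac3, a muscle protein of excitation-contraction coupling, was at 7.21 and 8.18 CPM against 0.329 and 0.434, with a log2 fold change of 4.31 (SE 0.25, adjusted p = 4.74e-12). Sytl4, a Rab27 effector of secretory granules, was at 7.66 and 5.91 CPM against 0.146 and 0.401, with a log2 fold change of 4.59 (SE 0.31, adjusted p = 7.49e-11). Rapgef4, a cAMP-activated exchange factor for Rap, Klrb1a, a lectin-like receptor of natural killer cells, and Gria4, a glutamate receptor subunit, completed the 14, with log2 fold changes of 3.98, 3.85 and 3.74. In all 14, both Dox libraries lay above both A-MYB and both control libraries.

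**Figure D2:**
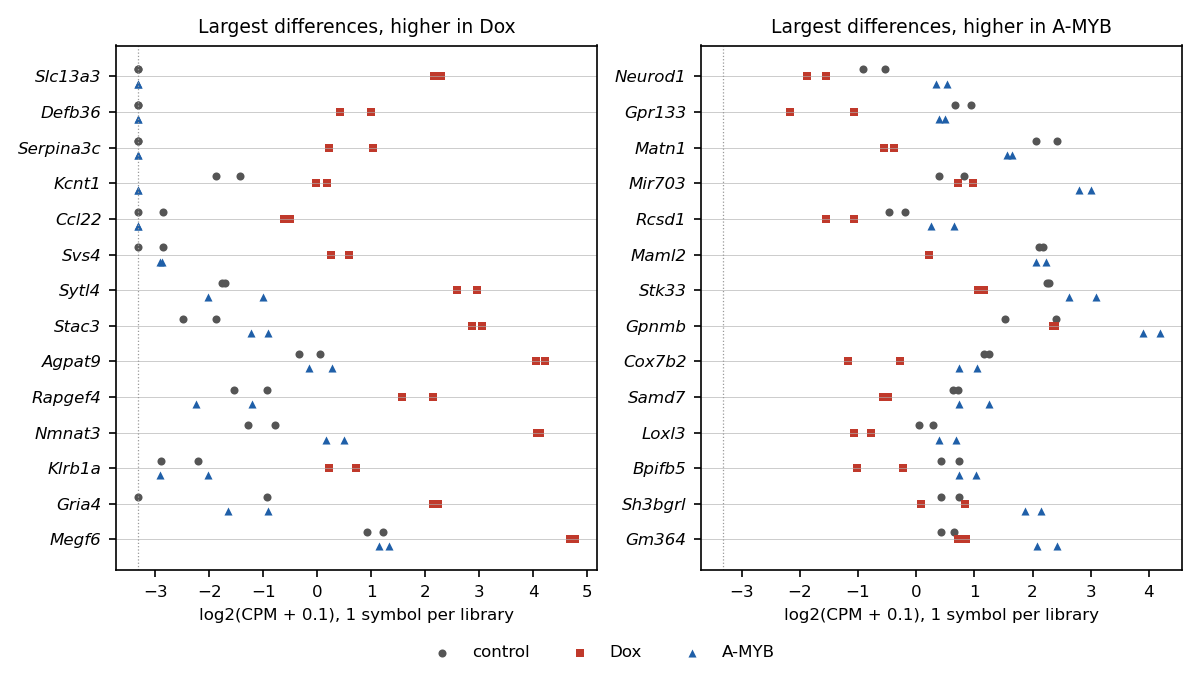
Levels as log2(CPM + 0.1), 1 symbol per library, for the 14 genes with the largest difference in each direction. On the left the Dox squares stand apart to the right of both other groups; on the right the control circles lie beside the Dox squares for some genes (Mir703, Gpnmb, Gm364) and beside the A-MYB triangles for others (Maml2, Gpr133, Bpifb5).

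By the same choice, the genes with the largest difference towards A-MYB stood in different places relative to control. Some were above it in A-MYB cells, some below it in Dox cells, and some had control libraries between the treatments. Usp26, described below, had a larger difference (-3.73), but its mean log2 CPM of -0.57 was under the cut. Gpnmb, a transmembrane glycoprotein of lysosomes and melanosomes (chr6:49036518-49058182), was at 14.9 and 18.2 CPM in A-MYB cells, 5.03 and 5.12 in Dox cells and 2.77 and 5.17 in control cells. The log2 fold change was -1.71 (SE 0.18, adjusted p = 3.04e-06), and both A-MYB libraries lay above all others. Neurod1, a basic helix-loop-helix factor of neurons and pancreatic islets, was at 1.35 and 1.17 CPM in A-MYB cells, 0.242 and 0.172 in Dox cells and 0.589 and 0.427 in control cells. Its control libraries lay between the treatments, and its log2 fold change was -2.57 (SE 0.54, adjusted p = 0.00236). Stk33, a serine/threonine kinase gene, also had control libraries between the treatments, at 4.64 and 4.74 CPM against 6.06 and 8.42 in A-MYB cells and 2.15 and 1.99 in Dox cells, with a log2 fold change of -1.80 (SE 0.23, adjusted p = 6.89e-06). Reads over the Mir703 locus were at 7.96 and 6.85 CPM in A-MYB cells, 1.88 and 1.55 in Dox cells and 1.21 and 1.67 in control cells, with a log2 fold change of -2.1 (SE 0.26, adjusted p = 5.07e-06). These are messenger RNA libraries, so the value is not a level of the mature microRNA. Gm364, a predicted gene, and Sh3bgrl, an SH3-binding protein gene, were likewise above control in A-MYB cells, with log2 fold changes of -1.52 and -1.55. The Sh3bgrl call was lost without Dox replicate 2 (adjusted p = 0.0718).

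Maml2, a coactivator of Notch signalling, was at 1.06 and 1.07 CPM in Dox cells, 4.60 and 4.07 in A-MYB cells and 4.43 and 4.20 in control cells, a log2 fold change of -2.02 (SE 0.28, adjusted p = 2.03e-05). The A-MYB and control libraries of Maml2 overlapped. Matn1, a matrilin of cartilage matrix, was at 0.666 and 0.584 CPM in Dox cells, 2.85 and 3.04 in A-MYB cells and 4.05 and 5.28 in control cells, so both treatments lay below control and Dox lower. Its log2 fold change was -2.22 (SE 0.33, adjusted p = 4.18e-05). Gpr133, an adhesion receptor gene, was at 0.121 and 0.378 CPM in Dox cells, 1.21 and 1.30 in A-MYB cells and 1.49 and 1.83 in control cells. Its log2 fold change was -2.34 (SE 0.54, adjusted p = 0.00454), and the call was lost without Dox replicate 1 (adjusted p = 0.0823). Rcsd1, which encodes a protein that binds the actin-capping protein CapZ, was at 0.242 and 0.378 CPM in Dox cells, 1.10 and 1.47 in A-MYB cells and 0.623 and 0.777 in control cells, which lay between the treatments. Its log2 fold change was -2.05 (SE 0.45, adjusted p = 0.00307). Cox7b2, Samd7, Loxl3 and Bpifb5 completed the 14 with log2 fold changes from -1.70 to -1.62. All 4 of those calls were lost without A-MYB replicate 2 (adjusted p = 0.0693, 0.0971, 0.0993 and 0.0607). Those of Samd7, Loxl3 and Bpifb5 were also lost without Dox replicate 1 (0.06, 0.0587 and 0.125), and those of Cox7b2, Samd7 and Loxl3 without Dox replicate 2 (0.165, 0.0614 and 0.154).

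Counts of list members here and below stand beside 5.05% of all genes tested higher in Dox cells and 6.94% higher in A-MYB cells. Germline genes did not follow 1 treatment. The piRNA pathway, which silences transposons in germ cells, had 4 of 18 tested members higher in Dox cells and 1 higher in A-MYB cells, with a median log2 fold change of 0.29 against 0.00 over all genes tested. Piwil2, a PIWI protein that binds piRNAs, stood at 27.048 and 27.8 CPM in Dox cells, 17.0 and 18.8 in A-MYB cells and 12.2 and 11.3 in control cells. Both treatments thus lay above control, Dox higher, with a log2 fold change of 0.61 (SE 0.10, adjusted p = 0.000127). Ddx4, the RNA helicase VASA, had the same order, at 28.6 and 27.2, 17.5 and 19.102 and 12.8 and 13.6 CPM, and a log2 fold change of 0.61 (SE 0.10, adjusted p = 0.000184). Mov10l1, the helicase that starts piRNA production, was at 16.1 and 20.6 CPM in Dox cells and 9.64 and 11.1 in A-MYB cells, where it overlapped the control libraries; its log2 fold change was 0.82 (SE 0.13, adjusted p = 8.25e-05). Tdrd12, a tudor-domain factor of piRNA biogenesis, went the other way, at 51.7 and 52.3 CPM in Dox cells and 72.8 and 66.7 in A-MYB cells, with a log2 fold change of -0.42 (SE 0.07, adjusted p = 0.000417).

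The median of the 26 meiotic prophase genes tested lay 0.66 above control in Dox cells and 0.27 above it in A-MYB cells on the log2 scale. Between the treatments, 3 of the 26 were called higher in Dox cells and 1 higher in A-MYB cells, where 5.05% and 6.94% of all genes tested were, and the median difference was -0.03. Hormad1, which marks unsynapsed chromosome axes, was the member higher in A-MYB cells, at 29.4 and 24.7 CPM against 20.7 and 16.7 in Dox cells and 11.5 and 9.67 in control cells. The difference was -0.53 (SE 0.14, adjusted p = 0.0183) on the log2 scale. The cohesin genes Stag3 and Rec8 and the synaptonemal complex gene Syce1 were higher in Dox cells, with log2 fold changes of 0.24, 0.38 and 0.37. All 4 of these calls were lost without Dox replicate 2 (adjusted p = 0.216 for Hormad1 and 0.248, 0.173 and 0.164 for the others). Hormad1 was also lost without A-MYB replicate 1 (0.196), the other three without A-MYB replicate 2 (0.284, 0.2 and 0.144), and Stag3 and Rec8 without Dox replicate 1 (0.0727 and 0.0598). By edgeR and by DESeq2, 0 of the 7 tested spermatid genes were called, with 1 at an unadjusted p under 0.05, and 19 more were not tested.

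Among 26 further germline genes, 6 were higher in each direction; 2 and 3 were left without either Dox library, and 3 and 4 without A-MYB replicate 1. Usp26, a ubiquitin-specific protease gene of the X chromosome expressed in testis (chrX:51752667-51801233), was at 1.02 and 1.64 CPM in A-MYB cells, 0.0909 and 0.103 in Dox cells and 0.139 and 0.233 in control cells. The A-MYB libraries stood above the other 4, with a log2 fold change of -3.73 (SE 0.67, adjusted p = 0.000507). Nxf2, a testis RNA export factor gene of the X chromosome (chrX:134944526-134964754), was at 5.04 and 5.41 CPM in A-MYB cells, 2.73 and 2.51 in Dox cells and 1.00 and 0.894 in control cells. Both treatments lay above control, A-MYB higher, with a log2 fold change of -0.99 (SE 0.17, adjusted p = 0.000262). Rhox13, an X-linked homeobox gene of germ cells, was higher in Dox cells, at 16.4 and 16.2 CPM against 6.61 and 8.92 in A-MYB cells, with a log2 fold change of 1.06 (SE 0.14, adjusted p = 1.43e-05).

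MYB proteins bind DNA with the core letters AAC followed by a guanine at a fixed distance. The 250 bases before each annotated start were searched for TAACGG and TAACTG on both strands. These letters are narrower than that core and than the planned AACGG and AACTG. Promoters with the core after a letter other than T, such as that of Gm364, were not counted as matches. Of 32851 such RefSeq promoters (GRCm38.p6), 10.5% held at least 1 of these letters. The named genes counted were called higher in A-MYB cells, with both A-MYB libraries above all Dox and control libraries, and had a promoter in the table. Impact and Eif1a also had such levels, but the genes of their chromosome were left out of the count. Of the 29 genes counted, 4 held a match: Usp26, Nxf2, Hormad1 and Atf7ip. The 10.5% counts promoters of all RefSeq genes, while the 29 are genes, some with more than 1 promoter. The counts were therefore not compared. Of the 4, the 3 germline genes are shown, since their levels in A-MYB cells were described above, with the matched letters in capitals. Promoters without a match are not shown, among them another promoter of Nxf2 (chrX:134963898-134964147). A match is a description of these letters and not a bound site.
Usp26, chrX:51801234-51801483, minus strand, match starting 195 bases before the start site: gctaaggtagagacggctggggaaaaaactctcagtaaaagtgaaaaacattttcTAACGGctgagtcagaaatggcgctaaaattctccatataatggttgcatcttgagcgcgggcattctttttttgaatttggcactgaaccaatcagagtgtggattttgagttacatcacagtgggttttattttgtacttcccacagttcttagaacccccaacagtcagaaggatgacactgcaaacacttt
Nxf2, chrX:134964755-134965004, minus strand, match on the opposite strand starting 31 bases before the start site: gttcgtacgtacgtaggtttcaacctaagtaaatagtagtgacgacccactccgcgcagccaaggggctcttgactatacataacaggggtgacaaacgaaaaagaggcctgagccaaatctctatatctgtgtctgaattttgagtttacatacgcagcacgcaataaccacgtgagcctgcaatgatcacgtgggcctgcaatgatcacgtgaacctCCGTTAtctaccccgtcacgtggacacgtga
Hormad1, chr3:95559427-95559676, plus strand, match on the opposite strand starting 44 bases before the start site: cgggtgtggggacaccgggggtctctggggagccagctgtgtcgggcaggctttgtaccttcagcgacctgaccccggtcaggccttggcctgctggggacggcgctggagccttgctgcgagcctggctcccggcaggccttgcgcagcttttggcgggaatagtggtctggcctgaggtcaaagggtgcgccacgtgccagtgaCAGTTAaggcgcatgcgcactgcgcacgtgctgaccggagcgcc

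The naive and the later pluripotent states differed in the direction of their list medians. Naive ES cells, the state kept by both inhibitors and LIF, express a set of transcription factors and markers, of which 6 of 22 tested members were higher in Dox cells and 1 in A-MYB cells (median log2 fold change 0.08). Dppa3, the maternal factor STELLA that protects DNA methylation in the early embryo, was at 50.3 and 47.6 CPM in Dox cells, 24.4 and 25.4 in A-MYB cells and 17.0 and 17.2 in control cells. Its log2 fold change was 0.97 (SE 0.09, adjusted p = 3.28e-08), and no library of 1 group overlapped another. Utf1, a chromatin protein of ES cells, was at 116 and 127 CPM in Dox cells and 69.4 and 82.1 in A-MYB cells, which overlapped the control libraries at 76.1 and 80.2; its log2 fold change was 0.68 (SE 0.08, adjusted p = 2.64e-06). The reprogramming factor Klf4 was at 338 and 338 CPM against 263 and 269, a log2 fold change of 0.35 (SE 0.05, adjusted p = 0.000105). Tbx3, a T-box factor of the naive network, had a log2 fold change of 0.30 (SE 0.06, adjusted p = 0.000903). Of 15 tested genes of formative and primed pluripotency, the states that follow, 1 was higher in Dox cells and 2 in A-MYB cells (median -0.14). Over all genes tested the shares were 5.05% and 6.94%. Foxd3, a factor of the formative state, was the member higher in Dox cells, at 33.1 and 32.1 CPM against 20.6 and 22.6 in A-MYB cells, with a log2 fold change of 0.59 (SE 0.10, adjusted p = 0.000158). The adhesion gene Cdh2, which encodes N-cadherin, and the zinc finger gene Sall2 were higher in A-MYB cells, with log2 fold changes of -0.81 (SE 0.23, adjusted p = 0.0203) and -0.37 (SE 0.12, adjusted p = 0.0468). Both of these calls were lost when any 1 of the Dox or A-MYB libraries was left out (adjusted p from 0.0694 to 0.174 and from 0.1 to 0.283), that of Sall2 also under DESeq2 (adjusted p = 0.0710) and total-count scaling (0.0616).

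Cells of the 2-cell-like state, a rare state of ES cultures that resembles the embryo at genome activation, are marked by Zscan4 genes and other transcripts. Of 18 such genes tested, 3 were higher in Dox cells and 1 in A-MYB cells, and the median log2 fold change was 0.69. Against control cells the medians of these 18 were 0.68 in Dox cells and -0.00 in A-MYB cells. Tmem92, a transmembrane protein gene, stood at 6.75 and 5.88 CPM in Dox cells, 1.61 and 2.104 in A-MYB cells and 2.35 and 1.98 in control cells, with a log2 fold change of 1.76 (SE 0.23, adjusted p = 9.25e-06). Arg2, the mitochondrial arginase, was at 2.42 and 3.33 CPM against 0.804 and 0.935, with a log2 fold change of 1.72 (SE 0.34, adjusted p = 0.00135). Zscan4a was at 9.93 and 9.76 CPM against 5.11 and 4.71, with a log2 fold change of 1.00 (SE 0.18, adjusted p = 0.000477); the near-identical copies of this gene family share reads, so its level is uncertain. Eif1a, a translation initiation factor gene, was the member higher in A-MYB cells, at a log2 fold change of -0.33. Among trophoblast genes, 3 of 12 were higher in Dox cells and 0 in A-MYB cells by edgeR, 2 and 0 by DESeq2 and 7 and 0 at an unadjusted p under 0.05. Among them were Gata2, a placental transcription factor, with 14.1 and 13.8 CPM against 6.76 and 7.11, and Krt18, a keratin, with 10.7 and 10.2 against 5.26 and 4.74. Their log2 fold changes were 1.01 (SE 0.14, adjusted p = 2.22e-05) and 1.06 (SE 0.16, adjusted p = 5.94e-05), while the summed trophoblast markers, given above, differed by far less. Most of that sum was Tfap2c. By sign, 8 of the 12 trophoblast genes lay towards Dox cells and 4 towards A-MYB cells. The marker Cdx2 was lower in Dox cells, at 1.97 and 1.24 CPM against 2.78 and 2.20 in A-MYB cells.

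Nodal signalling, which maintains primed pluripotency and patterns the early embryo, induces its own inhibitors. Of 22 tested members of the Nodal and TGF-beta pathway, 6 were higher in A-MYB cells and 1 in Dox cells, with a median log2 fold change of -0.13. The feedback inhibitor Lefty1 was at 17.8 and 19.3 CPM in Dox cells, 37.4 and 42.5 in A-MYB cells and 85.3 and 85.4 in control cells. Both treatments thus lay below control, Dox lower, with a log2 fold change of -1.10 (SE 0.10, adjusted p = 2.06e-08). Lefty2, its neighbour and paralogue, had the same order at 195 and 197, 334 and 335 and 428 and 435 CPM, and a log2 fold change of -0.77 (SE 0.06, adjusted p = 2.58e-10). Skil, a repressor that damps SMAD signalling, differed in its order: it was at 130.1 and 119 CPM in A-MYB cells, above control cells at 97.9 and 102, while the Dox libraries, at 98.4 and 92.2, overlapped control. Its log2 fold change was -0.39 (SE 0.07, adjusted p = 0.00043).

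**Figure D3:**
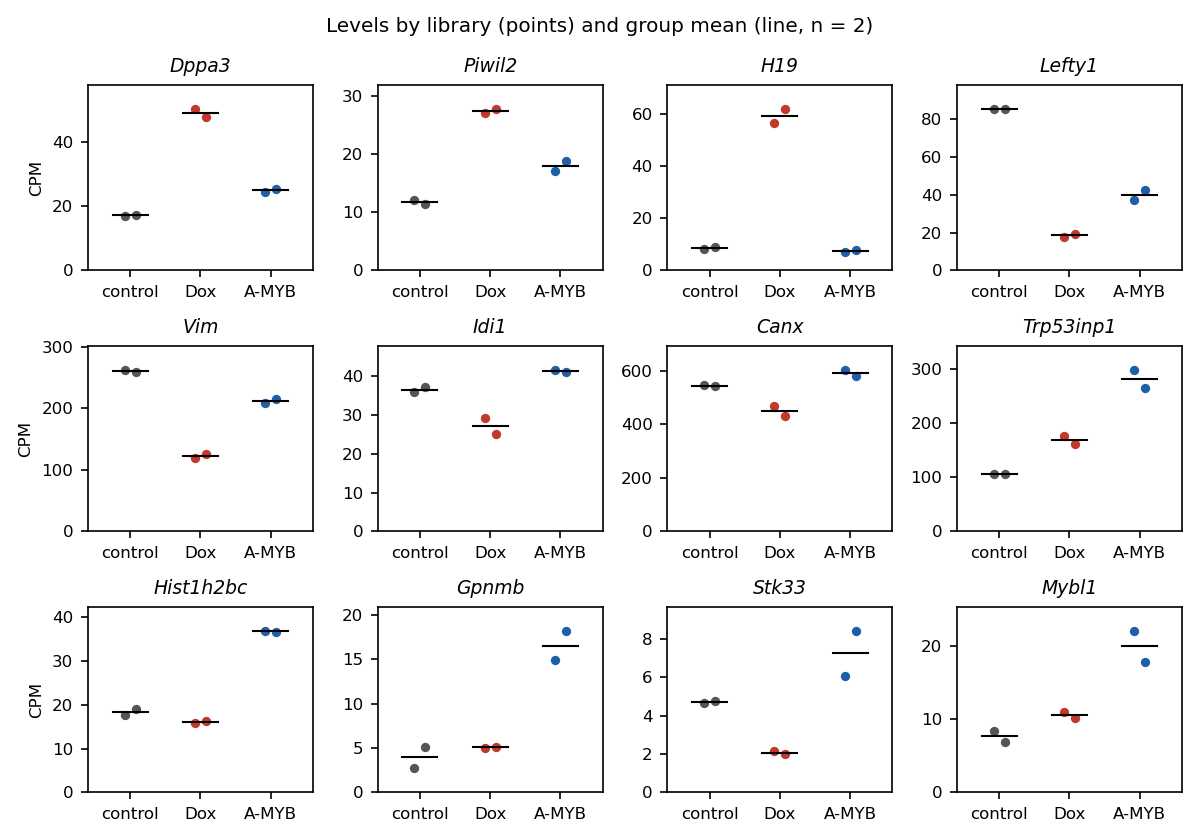
CPM in each control, Dox and A-MYB library for 12 genes (points; the line is the mean of n = 2), each panel with its own axis from 0. Dppa3, Piwil2 and H19 are highest in Dox cells. Lefty1 and Vim are lowest in Dox cells and highest in control cells. Idi1, Canx, Trp53inp1, Hist1h2bc, Gpnmb, Stk33 and Mybl1 are highest in A-MYB cells.

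Genes of lipid synthesis were higher in A-MYB cells wherever they were called. In the cholesterol pathway, which SREBP2 controls in response to sterol levels, 9 of 22 tested members were higher in A-MYB cells and none in Dox cells (median -0.21). At an unadjusted p under 0.05 the counts were 13 and 0, and DESeq2 called 9 and 0. Against control the medians of this list were -0.62 in Dox cells and -0.35 in A-MYB cells, nearer to control in A-MYB cells. Idi1, the isomerase of isopentenyl diphosphate, was at 29.1 and 25.0 CPM in Dox cells and 41.6 and 41.0 in A-MYB cells, above the control level of 35.8 and 37.0, with a log2 fold change of -0.61 (SE 0.10, adjusted p = 0.000162). Cyp51, the lanosterol demethylase, and Insig1, the sterol sensor that holds SREBP in the endoplasmic reticulum, had log2 fold changes of -0.40 and -0.46. Between 6 and 7 members of the list were called when a Dox or A-MYB library was left out. In fatty acid synthesis 4 of 15 were higher in A-MYB cells, led by the desaturase Scd2 at 1308 and 1257 CPM against 891 and 884 in Dox cells (log2 fold change -0.53 (SE 0.07, adjusted p = 6.16e-06)), and 1 was called without A-MYB replicate 1 and 2 without Dox replicate 2.

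Chaperones of the endoplasmic reticulum, which fold secreted and membrane proteins, leaned the same way in 19 of 20 members by sign and in 9 of 20 by the test, with none higher in Dox cells (median -0.19). At an unadjusted p under 0.05, 12 were higher in A-MYB cells and 0 in Dox cells, and DESeq2 called 10 and 0. Canx, the lectin chaperone calnexin, was at 604 and 579 CPM in A-MYB cells, 467 and 432 in Dox cells and 545 and 542 in control cells. Its control libraries lay between the treatments, and its log2 fold change was -0.40 (SE 0.06, adjusted p = 2.91e-05). Hsp90b1, known as GRP94, was below control in both treatments, at 613 and 571 CPM in A-MYB cells, 475 and 461 in Dox cells and 846 and 779 in control cells, with a log2 fold change of -0.34 (SE 0.06, adjusted p = 0.000278). Pdia3, a disulfide isomerase, and Hspa5, known as BiP, had log2 fold changes of -0.32 and -0.26. The Hspa5 call was lost without Dox replicate 2 (adjusted p = 0.0828), where 3 of the 20 chaperone genes were called. Without Dox replicate 1, A-MYB replicate 1 or A-MYB replicate 2, 5, 5 and 6 were called. Of 20 cytosolic heat shock genes, 2 were higher in A-MYB cells, where 6.94% of all genes tested were. Among them was the small heat shock protein gene Hspb8 with a log2 fold change of -0.35 (SE 0.07, adjusted p = 0.00223).

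Glycolysis and hypoxia genes had 8 of 30 members higher in A-MYB cells and none higher in Dox cells, although the median difference was only -0.05. Against control the medians of this list were -0.49 in Dox cells and -0.375 in A-MYB cells, below control in both treatments. DESeq2 called 8 and 1, and at an unadjusted p under 0.05 the counts were 11 and 1. Bnip3, a mitophagy receptor induced by low oxygen, was at 291 and 279 CPM in A-MYB cells, 208 and 194 in Dox cells and 286 and 278 in control cells, with a log2 fold change of -0.50 (SE 0.06, adjusted p = 4.46e-06). Its A-MYB and control libraries overlapped. Ero1l, an oxidase of disulfide formation, and Aldoc, an aldolase, had log2 fold changes of -0.42 and -0.40. Aldoc was below control in both treatments, at 41.7 and 41.4 CPM in Dox cells and 54.1 and 55.6 in A-MYB cells. Control cells had 73.2 and 74.8 CPM of Aldoc. They had 2041.5 and 2017 CPM of Pgk1, also above both treatments. The phosphoglycerate kinase gene Pgk1 was at 1737 and 1784 CPM in A-MYB cells and 1469.6 and 1439.6 in Dox cells, with a log2 fold change of -0.28 (SE 0.05, adjusted p = 0.00112); the call was lost without Dox replicate 2 (0.0545), where 4 members of the list were called. Without A-MYB replicate 1, 5 were called. Of 28 genes of the integrated stress response, 5 were higher in A-MYB cells and none in Dox cells, but only 1 or 2 without Dox replicate 2, Dox replicate 1 or A-MYB replicate 1, and 3 without A-MYB replicate 2. Nupr1, a stress-induced chromatin protein of that list, was at 10.2 and 11.4 CPM in A-MYB cells, 6.88 and 6.22 in Dox cells and 20.3 and 21.7 in control cells (log2 fold change -0.72 (SE 0.14, adjusted p = 0.0013)). Amino acid transporters were split, with Slc38a2 and Slc1a4 higher in A-MYB cells (-0.44 and -0.63) and the glutamine carrier Slc1a5 higher in Dox cells (0.41), which kept their calls without any single library.

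The list of targets of p53, the tumour suppressor that halts damaged cells, had median log2 fold changes against control of 0.22 in Dox cells and 0.23 in A-MYB cells. Between the treatments 6 of 21 were higher in A-MYB cells and 1 in Dox cells (median -0.12). Trp53inp1, a nuclear partner of p53, was at 299 and 266 CPM in A-MYB cells, 177 and 161 in Dox cells and 107 and 106 in control cells, with a log2 fold change of -0.74 (SE 0.07, adjusted p = 4.60e-07). Ccng1, cyclin G, had the same order at 349.6 and 323, 252 and 250.4 and 213 and 217 CPM, with a log2 fold change of -0.42 (SE 0.06, adjusted p = 2.04e-05). Plk2, a polo-like kinase, and Eda2r, a TNF receptor family member, had log2 fold changes of -0.39 and -0.36. The Eda2r call was lost without Dox replicate 2 (0.0595), where 3 targets were called higher in A-MYB cells.

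**Figure D4:**
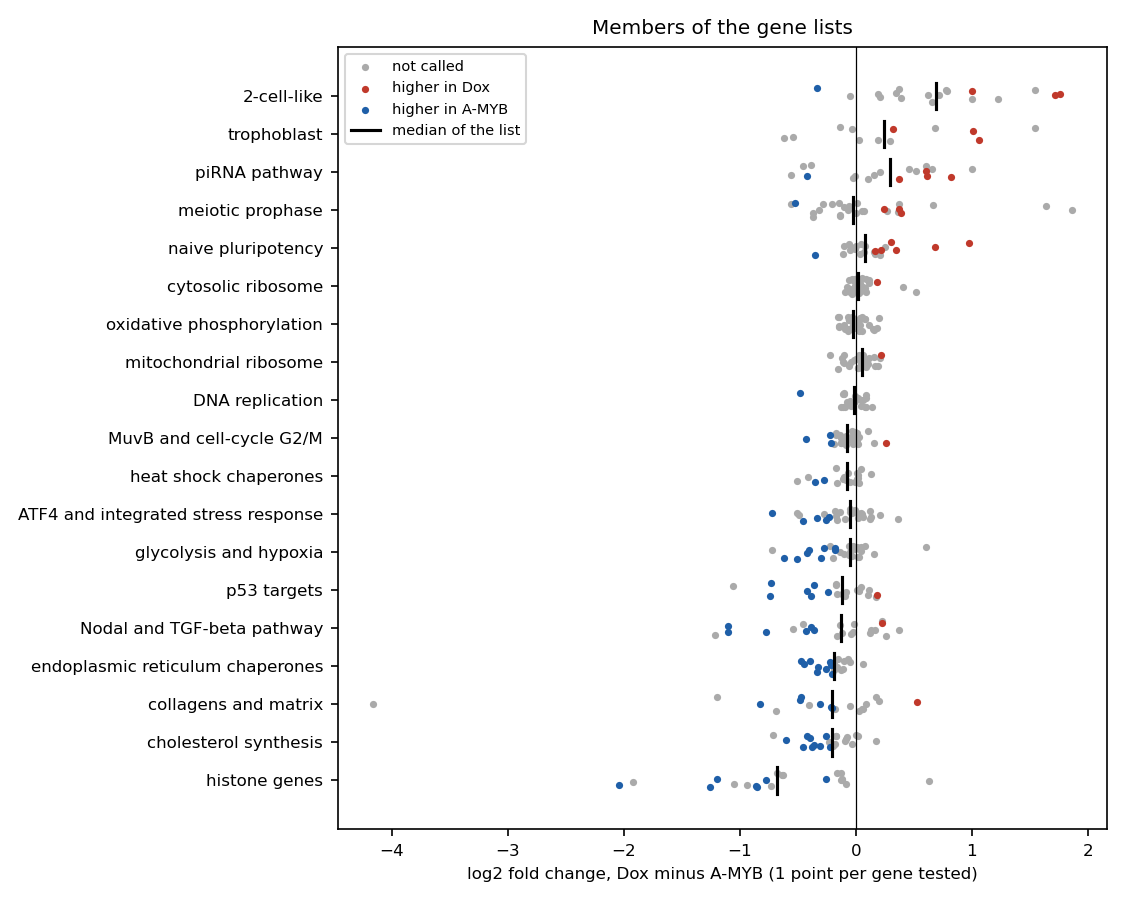
Log2 fold change, Dox minus A-MYB, of every tested member of 19 gene lists; red and blue points were called, grey ones were not, and the black bar is the list's median. Medians run from 0.69 for 2-cell-like genes to -0.68 for the histone genes, where 20 of 21 members lie below 0.

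Histone genes gave the widest shift of the lists towards A-MYB cells. Of 21 listed genes, 20 were below 0 and 7 were called higher in A-MYB cells, with a median log2 fold change of -0.68. At an unadjusted p under 0.05, 11 were higher in A-MYB cells and 0 in Dox cells, and DESeq2 called 6 and 0. Against control the medians were -0.27 in Dox cells and 0.41 in A-MYB cells. Hist1h2bc, an H2B gene of the cluster on chromosome 13 (chr13:23684199-23692480), was at 36.9 and 36.7 CPM in A-MYB cells, 15.9 and 16.3 in Dox cells and 17.7 and 19.076 in control cells. This gave a log2 fold change of -1.19 (SE 0.09, adjusted p = 7.05e-10). Hist3h2a, an H2A gene on chromosome 11 (chr11:58954685-58955192), was at 22.7 and 24.4, 9.93 and 9.76 and 12.0 and 12.3 CPM in the same order, with a log2 fold change of -1.26 (SE 0.11, adjusted p = 7.57e-09). Hist1h1c, a linker histone gene, was at 65.0 and 73.0 CPM in A-MYB cells and 39.0 and 41.7 in Dox cells, and Hist1h4i, an H4 gene, at 18.7 and 20.2 and 11.3 and 10.1, with log2 fold changes of -0.77 (SE 0.08, adjusted p = 6.59e-07) and -0.85 (SE 0.11, adjusted p = 9.41e-06). In all 4 genes the Dox libraries lay near control and both A-MYB libraries above both.

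Across the 51 tested genes whose symbol begins with Hist, a group added after the values were seen, 10 were higher in A-MYB cells and none in Dox cells. Most histone messages of dividing cells lack a poly(A) tail and are poorly caught by the poly(A) selection of the library kit, so these levels may represent the polyadenylated part alone, and near-identical members share reads. The called histone genes numbered 4 without Dox replicate 1 or Dox replicate 2 and 5 without either A-MYB library. Genes of DNA replication held few calls: 1 of 23 was higher in A-MYB cells, the S-phase cyclin gene Ccne2 (log2 fold change -0.48 (SE 0.11, adjusted p = 0.00598)), a call lost without Dox replicate 2 (0.229) and A-MYB replicate 1 (0.0658). Of 28 genes of the G2 and M phases, which B-MYB and the MuvB complex control, 3 were higher in A-MYB cells and 1 in Dox cells. Over all genes tested the shares were 6.94% and 5.05%. Ect2, an exchange factor of cytokinesis, was at 277 and 273 CPM in A-MYB cells and 214 and 194 in Dox cells, with a log2 fold change of -0.43 (SE 0.06, adjusted p = 4.07e-05). Mybl2, which encodes B-MYB, was the one higher in Dox cells, at 751 and 776 CPM against 629 and 643 and a log2 fold change of 0.26 (SE 0.05, adjusted p = 0.00184); without Dox replicate 2 its adjusted p was 0.0665.

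Imprinted genes, which are expressed from 1 parental copy, moved both ways: 3 of 30 were higher in Dox cells and 7 in A-MYB cells, of which between 3 and 4 were left without any 1 of the Dox or A-MYB libraries. The maternally expressed noncoding RNA gene H19 (chr7:142575530-142578146) was at 56.3 and 61.9 CPM in Dox cells, 7.01 and 7.98 in A-MYB cells and 8.35 and 9.09 in control cells. The A-MYB and control libraries stood apart only slightly and the Dox libraries far above both, with a log2 fold change of 2.98 (SE 0.11, adjusted p = 4.39e-16). Peg10, a gene derived from a retrotransposon, was also higher in Dox cells, at 149 and 135 CPM against 96.7 and 86.5, with a log2 fold change of 0.63 (SE 0.07, adjusted p = 9.64e-07). Plagl1, a zinc finger regulator of growth, was higher in A-MYB cells, at 148 and 134 CPM against 97.1 and 88.7, with a log2 fold change of -0.60 (SE 0.07, adjusted p = 2.72e-06). Impact, an inhibitor of the kinase GCN2, had a log2 fold change of -0.50 (SE 0.06, adjusted p = 5.02e-06). Among cytoskeletal genes, Vim, the intermediate filament vimentin, was at 119.9 and 125 CPM in Dox cells, 209 and 216 in A-MYB cells and 263 and 259 in control cells, with a log2 fold change of -0.79 (SE 0.06, adjusted p = 1.16e-09). Tubb3, a neuronal tubulin, was at 122 and 119 CPM against 158 and 185, and Plod2, a lysyl hydroxylase of collagen, at 134 and 117 against 182 and 168, with log2 fold changes of -0.51 and -0.48. Of 19 collagen and matrix genes, 6 were higher in A-MYB cells and 1 in Dox cells; 2 were called higher in A-MYB cells without Dox replicate 1, A-MYB replicate 1 or A-MYB replicate 2.

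Calls in the other lists are given as higher in Dox cells and then higher in A-MYB cells, beside 5.05% and 6.94% of all genes tested. Of 34 oxidative phosphorylation genes, 0 were called by edgeR or DESeq2, with 3 higher in Dox cells and 2 in A-MYB cells at an unadjusted p under 0.05. The calls were 1 and 0 of 30 for the mitochondrial ribosome and 1 and 0 of 35 for the cytosolic ribosome, with medians between -0.02 and 0.05. Ribosome biogenesis had 3 and 1 of 25, silencing of endogenous retroviruses 2 and 2 of 22, DNA demethylation 2 and 1 of 13, and the PRC1.6 repressor complex 1 and 2 of 13. The Wnt pathway had 2 and 2 of 24, FGF feedback 2 and 0 of 18, LIF and STAT3 signalling 2 and 1 of 14, and amino acid transporters 1 and 2 of 15. The MYB family and its partners had 2 and 2 of 15, and interferon response 0 and 2 of 11. Markers of endoderm had 0 and 1 of 12, of mesoderm 1 and 0 of 13, of neuroectoderm 0 and 2 of 10, and of fibroblasts 0 and 1 of 7, which was Vim. Nuclear RNAs that reflect RNA quality had 0 and 1 of 9. Both directions together, the share called was below the 12.0% of all genes for oxidative phosphorylation, both ribosomes, FGF feedback, endoderm, mesoderm and nuclear RNA. It was above 12.0% for the other lists given so far in this paragraph. Without Dox replicate 2 no call was left in the lists of both ribosomes, ribosome biogenesis, silencing of endogenous retroviruses, PRC1.6, Wnt, FGF feedback, interferon response, endoderm, mesoderm and nuclear RNA. Among groups added by symbol after the values were seen, Zfp genes had 11 and 22 of 345, Rhox genes 3 and 0 of 7, Mage genes 0 and 3 of 12, collagen chains 0 and 2 of 29 and olfactory receptors none of 7. Of these groups, Zfp genes, collagen chains and olfactory receptors lay below 12.0%, and Rhox and Mage genes above it.

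The calls were spread unevenly over the chromosomes. The X chromosome had the highest share of genes higher in A-MYB cells, 78 of 533 (14.6%, against 6.94% of all genes tested), and 17 higher in Dox cells (3.19%). Its median log2 fold change was -0.10. Chromosomes 18 (11.5%), 13 (10.8%) and 3 (10.1%) came next, while chromosome 7 had the lowest share, 46 of 1178 (3.90%), and the highest share higher in Dox cells (7.30%). Against control, the median of the X-linked genes was 0.06 in Dox cells and 0.15 in A-MYB cells. Without Dox replicate 1, Dox replicate 2, A-MYB replicate 1 and A-MYB replicate 2 in turn, 9.38%, 5.07%, 6.57% and 10.5% of X-linked genes were higher in A-MYB cells, where the shares over all genes were 4.37%, 2.19%, 2.85% and 4.63%. Neighbouring genes share chromosomes and are not independent, and no test was made of these shares.

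**Figure D5:**
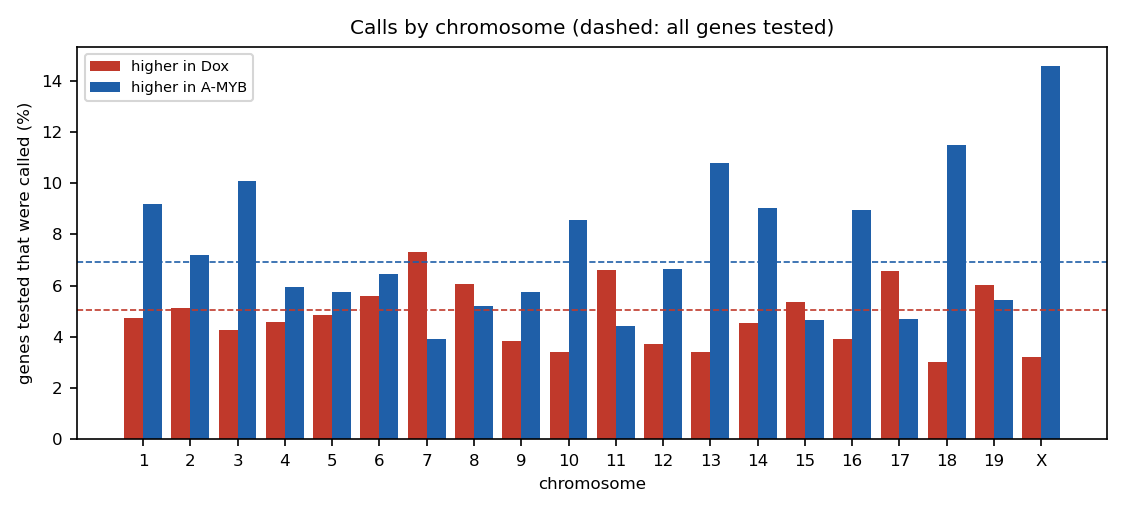
Share of tested genes on each chromosome called higher in Dox cells (red bars) and higher in A-MYB cells (blue bars), in percent from 0; dashed lines are the shares over all genes tested, 5.05% and 6.94%. The X chromosome has the tallest blue bar at 14.6% and chromosome 7 the tallest red bar at 7.30%.

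Some genes at least 2-fold higher in the same treatment were neighbours. Of the 118 in Dox cells, 14 (11.9%) had another within 200 kb, where 4.98% of all tested genes had such a gene within that distance. Of the 91 in A-MYB cells, 8 (8.79%) had one, where 2.64% of all tested genes did. The pairs named next were chosen after their values were seen. BC051019 and Nrip3 lie 34122 bases apart on chromosome 7. BC051019 was at 30.7 and 32.2 CPM in Dox cells, 3.32 and 3.24 in A-MYB cells and 0.970 and 1.75 in control cells, and Nrip3, which encodes a nuclear receptor interacting protein, at 13.1 and 13.8, 2.41 and 2.50 and 0.381 and 0.660. Their log2 fold changes were 3.26 (SE 0.13, adjusted p = 4.71e-15) and 2.45 (SE 0.16, adjusted p = 2.39e-11), and in both genes the A-MYB libraries also lay above control. Lad1, a basement membrane protein gene, and Tnnt2, the cardiac troponin T gene, lie 2974 bases apart on chromosome 1 and had log2 fold changes of 1.24 and 2.95. Gm11545 lay 16020 bases from Tmem92, described above, and Pllp, a myelin protein gene, 49442 bases from Ccl22, with log2 fold changes of 1.36 and 1.36; the Pllp call was lost without A-MYB replicate 1 (0.0733). The X-linked homeobox genes Rhox6 and Rhox9 had 2.43 and 1.97, the latter lost without Dox replicate 1 (0.0705) and A-MYB replicate 2 (0.0643). On the A-MYB side, Akr1cl, an aldo-keto reductase gene, and the lens crystallin gene Crygd lie 29079 bases apart on chromosome 1. A related crystallin gene, Cryge, lies between them. The log2 fold changes of Akr1cl, Cryge and Crygd were -1.10, -1.09 and -1.21, and the calls of Cryge and Crygd were lost without Dox replicate 1. Hist1h1e, Hist1h2ac and Hist1h2bc on chromosome 13 were neighbours too, in a gene family whose near-identical members share reads.

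The genes were last set beside H3K27ac, a histone mark of active promoters and enhancers, in pachytene spermatocytes of wild-type and A-myb mutant mice, a readout from other cells with 2 deposited peak lists per genotype. Peaks in both wild-type lists lay over the gene or within 1 kb of it in 1624 of 14604 placed genes tested (11.1%, exact 95% interval 10.6 to 11.6). The share was 8.94% (6.98 to 11.2) for genes higher in Dox cells and 13.9% (11.8 to 16.2) for genes higher in A-MYB cells. Among those at least 2-fold apart it was 15 of 118 (12.7%, 7.29 to 20.1) on the Dox side and 26 of 91 (28.6%, 19.6 to 39.0) on the A-MYB side. In both mutant lists 14 of the 118 (11.9%) and 20 of the 91 (22.0%) had a peak, against 10.1% of all genes tested. Peaks in both wild-type lists and neither mutant list touched 1 of the 118 (0.847%) and 2 of the 91 (2.2%), against 0.801% of all. The median gene length was 23.6 kb for genes higher in Dox cells and 27.5 kb for genes higher in A-MYB cells, against 22.4 kb for all genes. For the sets at least 2-fold apart it was 15.8 and 19.9 kb. The part of gene length in these shares was not tested. The intervals treat genes as independent, though neighbours such as Hist1h2ac and Hist1h2bc, 240 bases apart, can share a peak. Genes of both directions had a peak in every list of both genotypes. Among them were Usp26, Stk33, Matn1 and Hist1h2bc, higher in A-MYB cells, and Nmnat3, Gria4 and Mov10l1, higher in Dox cells.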

How the data were processed

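The authors' deposited ES cell files hold raw counts per gene symbol from stranded messenger RNA libraries; per the submitters' processing notes the tools named are bcl2fastq 2.20.0, HISAT2 2.1.0 and HTSeq with build mm10. The sources used here do not give the strand setting of the counting, so reads of overlapping or antisense genes cannot be told apart. The summary lines for reads not assigned to a single gene (17.2% to 19.5% of reads, of which reads outside any gene were 7.28% to 9.43%) were left out. Genes passing filterByExpr were scaled by TMM and fitted with edgeR 4.0.16 (R 4.3.3; glmQLFit, robust, 8 libraries, 4 groups, 4 residual degrees of freedom). The contrast Dox minus A-MYB was tested with glmQLFTest (two-sided; adjusted by Benjamini-Hochberg; calls at 0.05). SE is the absolute log2 fold change over the square root of F. The fit was tested on simulated data. Intervals and floors (3 counts over a group) cover counting error only.

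Named were Mybl1, the 14 largest called differences per direction whose mean log2 CPM over the 8 libraries was at least 0 and whose libraries did not overlap, and up to 4 genes per list by p; some of these are not reported here. The members and the 39 lists were chosen with earlier results of these data known, so a list's direction is not independent evidence. No list was tested as a set. The authors' deposited H3K27ac peak lists (MACS 1.4.2, per the submitters' processing notes) give mm10 positions, counts of tags, a score, and an enrichment as a fold ratio; which input was used is not given. Gene positions and promoters are RefSeq's, GRCm38.p6, matched for 99.6% of the genes tested. The planned start-site and motif shares by direction were void, since 78.7% of those genes had a promoter in the table, under the minimum of 80%; peaks over the gene replaced them.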

Additional observations from a re-analysis of the deposited data

How the results depend on the processing

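The 1759 calls (741 higher in Dox cells, 1018 higher in A-MYB cells) became 64 (40 and 24) when a difference of over 1.5-fold was required (glmTreat). When each library of the 4 groups was left out in turn they ran from 561 to 2455 in all, from 228 to 1024 higher in Dox cells and from 333 to 1436 higher in A-MYB cells; Dox replicate 2 and A-MYB replicate 1 lowered them most. At least 2-fold differences ran from 139 to 224 in all, with 80 to 124 on the Dox side and 57 to 100 on the A-MYB side. DESeq2 size factors gave 1749 calls (686 and 1063), total counts 1725 (872 and 853), DESeq2 1.42.0 1614 (619 and 995), no low-count filter 2037 (860 and 1177), the 4 Dox and A-MYB libraries alone 2281 (953 and 1328), and the 6 libraries without Dox + A-MYB 2456 (1067 and 1389). Replicate numbers did not pair the samples: the deviations of same-numbered Dox and A-MYB libraries correlated at 0.0279. With the replicate block 2053 genes were called (851 and 1202), and no named call was lost. Of 104 genes followed by name, 81 kept their call under every alternative but glmTreat, and 23 lost it under at least 1, mostly without a Dox or A-MYB library (18 without Dox replicate 2). No named gene changed its direction. H3K27ac shares on the autosomes (11.0% of all, 9.02% of genes higher in Dox cells, 13.6% of genes higher in A-MYB cells) became 5.82%, 4.44% and 6.86% with a score of at least 100, 13.1%, 11.1% and 15.5% within 5 kb, and 16.0%, 13.0% and 19.08% with a peak in either wild-type list; these alternatives and the gene interval itself were chosen after seeing the data. By level, 56 and 28 of the 2933 genes in the lowest of 5 groups were called, at a median absolute log2 fold change of 2.34, and 218 and 305 of the 2933 in the highest, at 0.252.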
